A study of Mus musculus with 18 samples.

Results

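The hearts of mice on a ketogenic diet were compared with the hearts of mice on chow by RNA sequencing. The comparison used the 6 libraries titled as wild-type heart, out of 18 in the series, which also holds kidney and liver. The ketogenic group was 3 libraries from wild-type mice of the inbred strain C57BL/6J that were given a diet with 90% of fat, 9.7% of protein and 0.3% of carbohydrate from 4 weeks of age for 21 days. The chow group was 3 libraries from mice of the same strain, age and feeding time on standard chow, whose composition the labels do not give. The labels name no deletion, transgene or drug in either group. They call the replicates biological and do not give the sex of the mice, the part of the heart taken, the hour of collection or whether the mice were fed at that time. The title of the series names p53 and cell senescence, so the questions put to the heart are how its genes differed by diet and which p53 and senescence genes were among those that did. All values below come from stranded libraries of messenger RNA, whose reads were counted on 22609 genes.

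The heart muscle cell burns mainly fatty acids, which enter through the transporter Cd36, are activated to acyl-CoA, pass into mitochondria as carnitine esters and are shortened by beta-oxidation. Pyruvate from glucose enters the same mitochondria through the pyruvate dehydrogenase complex, which the Pdk kinases switch off. When carbohydrate is scarce, the nuclear receptor PPAR-alpha turns on the genes of fat oxidation, and the liver releases ketone bodies that the heart can oxidise. In the first weeks of life heart muscle cells stop dividing, and fibroblasts lay down the collagen network while the heart grows.

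The libraries were compared before the diets were. Their total counts ran from 16135276 to 22767878. Ketogenic replicates 1 and 2 were nearly the same: a gene-by-gene chi-square comparison had a median of 0.665, where counting alone gives 0.455 and the other heart pairs of 1 diet gave 1.23 to 4.11. Beyond counting error the pair differed by a coefficient of variation of 2.41%, against 5.59% to 27.9% in the other pairs. They were summed and counted as 1 sample, so that every mean, SD and test rests on 2 ketogenic and 3 chow samples. Values per library are given for replicates 1, 2 and 3 in that order. Chow replicate 3 held tissue that the other hearts lacked. Its counts of the atrial genes Myl7 and Sln were 47522 and 12445, against at most 266 and 63 in any other heart, and those of the adipocyte genes Plin1 and Adipoq were 1007 and 589, against at most 12 and 6 in any other heart. The 10 atrial markers summed to 865, 859 and 940.2 CPM in ketogenic hearts and 915, 1006 and 17338 CPM in chow hearts, and the 10 white adipocyte markers to 412, 415 and 382 CPM and 445, 383 and 649 CPM. CPM (counts per 1000000) sets each count against the library's total, scaled by TMM, which assumes that most genes do not change. Ketogenic replicate 3 was the library with 266 counts of Myl7, and ketogenic replicates 1 and 2 had 12 and 8. The ventricular markers, such as the myosin light chain Myl2, were high in all 6 hearts, with a summed level of 67922, 67470.2 and 65649.5 CPM in ketogenic hearts and 59804, 62887 and 52852 CPM in chow hearts. Blood also differed. The 10 erythroid markers, globins among them, summed to 1268, 1274 and 2777 CPM in ketogenic hearts, against 4729, 5702 and 6729 CPM in chow hearts, and the groups did not overlap, although none of the 10 passed the test. Markers of lung were at or near 0: Scgb1a1 was at 0 in all 6 hearts and Sftpc had at most 1 count in any heart. Of 14 skeletal muscle markers 7 were tested and 1, Casq1, fell, and the list, whose Ckm and Acta1 the heart also makes, summed to 2764, 2683 and 2568 CPM in ketogenic hearts and 2861, 3088 and 2139 CPM in chow hearts. Of its fast fibre genes, Myh1 and Myh4 had at most 4 and 1 counts in any heart, and Pvalb had 35 in chow replicate 3 and at most 6 in any other. The part of tissue mixture and blood in the results below was not tested.

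**Figure D1:**
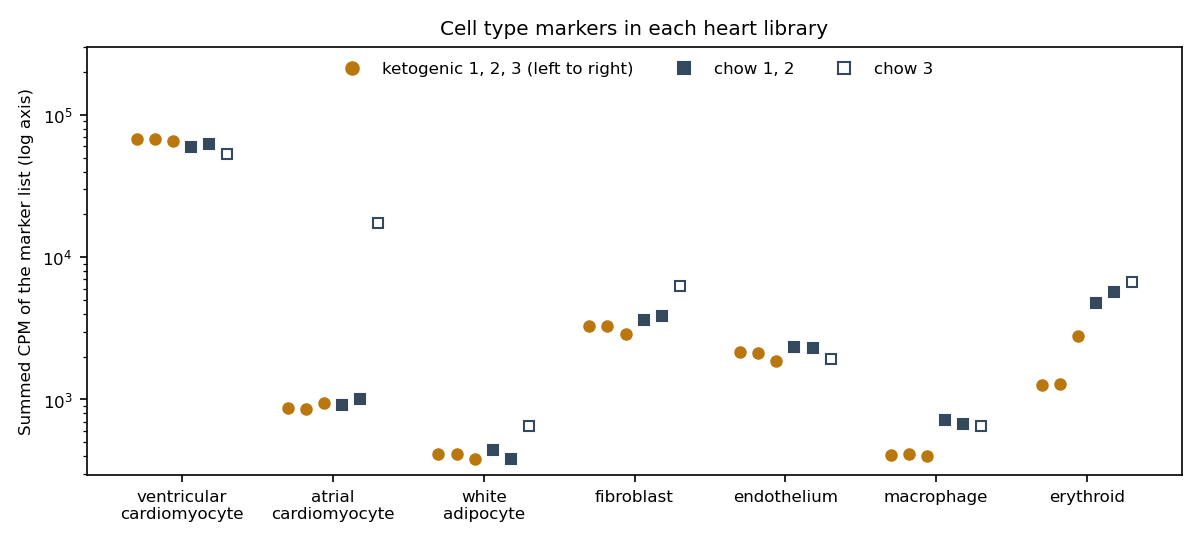
Summed CPM of 7 lists of cell type markers (log axis) in the 3 ketogenic hearts (circles) and the 3 chow hearts (squares), 1 point per library. Chow replicate 3 (open square) stands apart for the atrial list, at 17338 CPM, and the macrophage and erythroid lists are lower in every ketogenic heart than in every chow heart.

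Of 13609 genes tested, 851 rose and 791 fell on the ketogenic diet at an adjusted p under 0.05 (edgeR's quasi-likelihood test with Benjamini-Hochberg adjustment, which is the source of every adjusted p below). These are 6.25% and 5.81% of the genes tested, and the shares of each gene list below stand against them. Sizes of rises and falls below are log2 fold changes, ketogenic over chow, unless they are given as fold. The median log2 fold change of all genes was -0.03. Scaled by total count alone it was -0.17, and 464 genes rose and 1435 fell, so 24.4% of the calls were rises, against 51.8%. Without chow replicate 3, 1853 of 13384 genes rose (13.8%) and 1889 fell (14.1%), and 1638 of the 1642 genes called with it were among them. Without ketogenic replicate 3, which leaves the near-identical pair as the lone ketogenic sample, 89 genes passed. Without chow replicate 1 or 2, 663 and 459 passed. The groups of genes below were chosen with earlier results of these data known, so their counts describe them and do not test them. The same holds where the libraries of the diets are said not to overlap. Most genes so described were named because they passed, and the share of all genes without overlap is not given. Counts given in brackets as without chow replicate 3 are rises and then falls, and stand against the 13.8% and 14.1% of all genes in that fit.

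**Figure D2:**
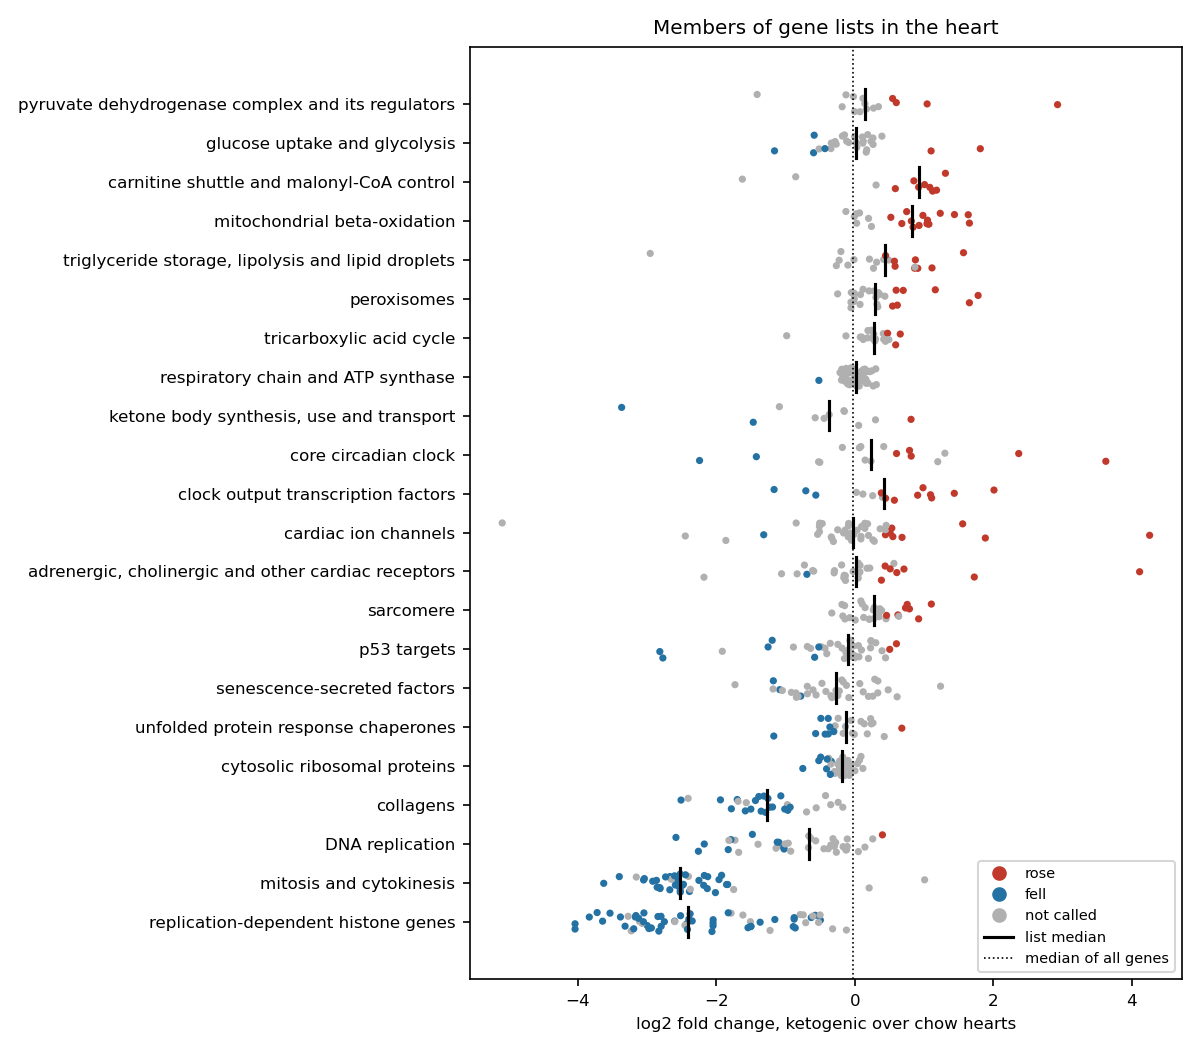
Log2 fold change, ketogenic over chow, of each tested member of 22 gene groups in the heart (1 point per gene; red rose, blue fell, grey not called). The black bar is the median of the group and the dotted line the median of all genes, -0.03; beta-oxidation genes lie to the right and mitosis, histone and collagen genes to the left.

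Of the 4 kinases that switch off pyruvate dehydrogenase 3 rose, led by Pdk4. Pdk4, which phosphorylates and switches off the complex (chromosome 6, 5433351 to 5446278, minus strand, mm9), had 2718, 2777 and 2399 CPM in ketogenic hearts, against 322, 328 and 363 CPM in chow hearts. Every ketogenic library lay far above every chow library, and the log2 fold change was 2.93, SE 0.12, adjusted p = 0.000318, a rise of 7.61-fold. Pdk1 and Pdk2 rose less, by 1.05 and 0.55 on a log2 scale (adjusted p = 0.00318 and 0.0238). Pdk3 did not pass, with 2.45, 2.80 and 3.22 CPM in ketogenic hearts and 6.44, 4.18 and 12.3 CPM in chow hearts (log2 fold change -1.41, SE 0.49, adjusted p = 0.122), and was a fall without chow replicate 3, at -0.90 (adjusted p = 0.0146). The phosphatase Pdp2, which switches the complex back on, also rose, by 0.60 (adjusted p = 0.0145). Of the 15 genes of the complex and its regulators, Pdk4, Pdk1, Pdk2 and Pdp2 rose and none fell (6 and 2 without chow replicate 3).

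Few genes of glucose uptake and glycolysis passed the test. Of 28 tested genes 2 rose (7.14%, against 6.25% of all genes) and 4 fell (14.3%, against 5.81%), with a median of 0.01 (4 and 8 without chow replicate 3). Slc2a1, the basal glucose transporter, had 13.3, 13.6 and 11.6 CPM in ketogenic hearts, against 18.5, 18.9 and 19.2 CPM in chow hearts, with no overlap, and fell by 0.59 on a log2 scale (adjusted p = 0.0227). Slc2a4, the insulin-driven transporter, and the hexokinase Hk2 did not pass, at -0.15 (adjusted p = 0.409) and 0.17 (adjusted p = 0.472). Lactate dehydrogenase Ldha fell by 0.43, the phosphofructokinase Pfkp fell by 0.59 and the hexokinase Hk3 fell by 1.16 (adjusted p = 0.0421, 0.0187 and 0.042). The risers were the bifunctional regulator Pfkfb1 at 1.81 and the D-lactate dehydrogenase Ldhd at 1.10 (adjusted p = 0.00548 and 0.00265). Outside these lists, Fbp2, the muscle fructose bisphosphatase of gluconeogenesis and glycogen synthesis, was among the 12 largest rises by the same rule as for the falls below, with 75.1, 80.2 and 80.8 CPM in ketogenic hearts and 19.4, 21.5 and 13.2 CPM in chow hearts (log2 fold change 2.14, SE 0.20, adjusted p = 0.0042). Txnip, which holds back glucose uptake, rose by 0.95 (adjusted p = 0.0276). Of 22 genes of glycogen metabolism 3 rose, the phosphorylase Pygb by 0.45, Pgm2 by 0.57 and the phosphatase subunit Ppp1r3d by 0.33 (adjusted p = 0.0298, 0.0324 and 0.0433), and none fell. Without chow replicate 3 the list had 7 rises and 3 falls. Of the 15 genes named here as changed, Pdk4 and Ldhd passed whichever library was left out. The call of 13 was lost without ketogenic replicate 3 (adjusted p up to 0.311), of 9 without chow replicate 1 (up to 0.125), of 9 without chow replicate 2 (up to 0.137) and of 2, Hk3 and Ppp1r3d, without ketogenic replicate 1 (up to 0.0575).

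Most genes of the carnitine shuttle and of mitochondrial beta-oxidation rose, and genes of fatty acid uptake were divided. Of 22 mitochondrial beta-oxidation genes 15 rose (68.2%) and none fell, with a median of 0.83, and of 11 genes of the carnitine shuttle 8 rose (72.7%), with a median of 0.92. The counts were the same, 15 and 8, without chow replicate 3. At the cell surface, Cd36 had 2781, 2891 and 3021 CPM in ketogenic hearts, against 1735, 1577 and 1109 CPM in chow hearts (log2 fold change 0.99, SE 0.19, adjusted p = 0.0211), and the transport protein Slc27a1 had 309.6, 301 and 259 CPM, against 101, 97.6 and 126 CPM in chow hearts (log2 fold change 1.39, SE 0.13, adjusted p = 0.00236). For neither gene did the diets overlap. Vldlr, the receptor that binds triglyceride-rich lipoproteins, rose by 0.79 and Acsl1, the main acyl-CoA synthetase of heart, by 0.94 (adjusted p = 0.0101 and 0.01). Fabp5 and Acsl5, a fatty acid binding protein and a synthetase, fell, at -0.95 and -0.57 (adjusted p = 0.00522 and 0.0376), which made 6 rises and 2 falls among 17 genes of uptake and activation (8 and 4 without chow replicate 3, with a median of 0.01 in place of 0.15). Acsm5, a medium-chain acyl-CoA synthetase, had 11.6, 10.1 and 6.50 CPM in ketogenic hearts and 1.82, 1.58 and 1.28 CPM in chow hearts (log2 fold change 2.49, SE 0.28, adjusted p = 0.00401).

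At the mitochondrial gate, the carnitine acetyltransferase Crat rose by 1.18, Cpt2 by 1.31 and Cpt1a by 0.92 (adjusted p = 0.00236, 0.00442 and 0.007). Malonyl-CoA, which blocks that gate, is made by Acacb and removed by Mlycd, and both genes rose. Acacb had 1205, 1186 and 1084 CPM in ketogenic hearts, against 560.4, 605 and 535 CPM in chow hearts (log2 fold change 1.01, SE 0.11, adjusted p = 0.00331), and Mlycd had 219, 211 and 194 CPM, against 112, 121 and 107 CPM in chow hearts (log2 fold change 0.85, SE 0.09, adjusted p = 0.00331). Inside mitochondria, Ech1 and Decr1, which handle unsaturated fatty acids, had the lowest adjusted p of the beta-oxidation list. Ech1 had 2480.5, 2378 and 2388 CPM in ketogenic hearts, against 848, 807 and 639 CPM in chow hearts (log2 fold change 1.66, SE 0.14, adjusted p = 0.00175), and Decr1 rose by 1.64. The trifunctional protein subunit Hadha rose by 1.44 and the long-chain dehydrogenase Acadl by 1.04 (adjusted p = 0.00364 and 0.00522). In all 9 genes of the gate and of oxidation named here each ketogenic library was above each chow library. Slc27a1, Acsm5, Mlycd, Ech1 and Decr1 passed whichever library was left out. The other 11 genes of uptake, shuttle and oxidation lost the call without ketogenic replicate 3 (adjusted p up to 0.264), and 1 and 2 of them also without chow replicate 1 and 2 (up to 0.0684 and 0.0777).

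Some genes of lipid storage, of acyl-CoA export and of peroxisomes rose as well. Of 20 tested genes of triglyceride storage and lipolysis 8 rose (40%) and none fell (13 and 2 without chow replicate 3). Gpam, which starts triglyceride synthesis, had 588, 586 and 574 CPM in ketogenic hearts, against 196, 222 and 169 CPM in chow hearts (log2 fold change 1.57, SE 0.13, adjusted p = 0.00158). Pnpla2, the lipase that starts triglyceride breakdown, had 716, 711 and 674 CPM, against 293, 327 and 340.1 CPM in chow hearts (log2 fold change 1.12, SE 0.10, adjusted p = 0.0023), so genes of both directions of the cycle were higher. The droplet coat genes Plin4 and Plin2 rose by 0.86 and 0.58, and the lipoprotein lipase inhibitor Angptl4 by 1.53 (adjusted p = 0.00844, 0.0102 and 0.0104). Angptl4 was lower in ketogenic replicate 3 than in the other ketogenic hearts, with 81.5, 81.6 and 50.9 CPM, against 22.1, 22.6 and 24.4 CPM in chow hearts. The uncoupling protein gene Ucp3 had 204, 206 and 174 CPM in ketogenic hearts and 36.9, 52.5 and 56.6 CPM in chow hearts (log2 fold change 1.96, SE 0.19, adjusted p = 0.00512). The mitochondrial carriers Slc25a42, which brings in coenzyme A, and Slc25a34 rose by 1.31 and 1.34 (adjusted p = 0.00139 and 0.0015). The acyl-CoA thioesterases Acot1 and Acot2 rose by 2.63 and 2.24 (adjusted p = 0.00175 and 0.00546), but they are near-identical neighbours and the split of reads between them is uncertain. Of 15 genes of thioesterases and uncoupling 5 rose (33.3%) and 1 fell (6.67%, against 5.81% of all genes), the mitochondrial carrier homolog Mtch1 at -0.33 (adjusted p = 0.04). Of 26 tested peroxisomal genes 7 rose and none fell (12 and 0 without chow replicate 3), among them the peroxisome division gene Pex11a at 1.78 and catalase Cat at 1.16 (adjusted p = 0.00157 and 0.00271). Gpam, Pnpla2, Acot1, Acot2, Slc25a42, Slc25a34 and Pex11a passed whichever library was left out. Of the other 6, 5 lost the call without ketogenic replicate 3 (adjusted p up to 0.282), Angptl4 and Mtch1 lost it without chow replicate 2 (up to 0.119), and Mtch1 also without chow replicate 1 (0.0796) or ketogenic replicate 2 (0.0533).

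**Figure D3:**
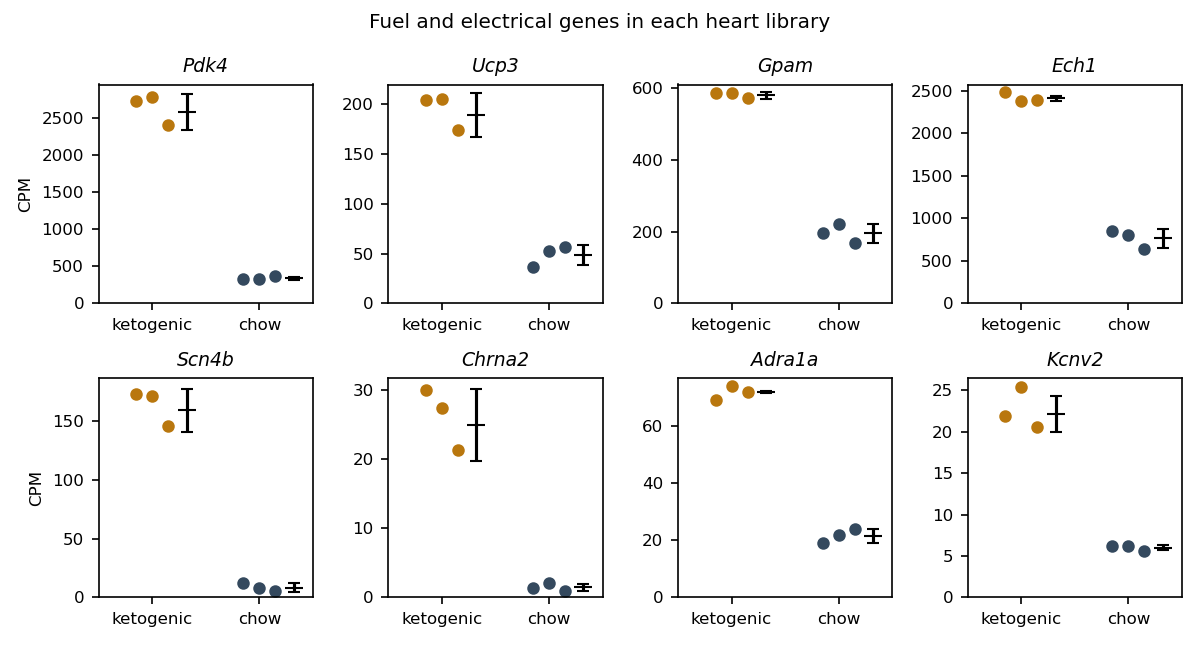
CPM of 8 genes of fuel use and electrical function in each of the 3 ketogenic hearts (left) and 3 chow hearts (right), 1 point per library, with mean and SD beside them (n = 2 for ketogenic, with replicates 1 and 2 as 1 sample, and n = 3 for chow). In each panel every ketogenic library is above every chow library, with Ech1 at 3.15-fold and Scn4b at 19.1-fold.

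Downstream of beta-oxidation fewer genes were called with all 6 libraries. The tricarboxylic acid cycle had 3 risers among its 20 genes (15%, against 6.25% of all genes). Idh2 rose by 0.66, Idh3g by 0.48 and Suclg2 by 0.59 on a log2 scale (adjusted p = 0.0372, 0.0236 and 0.0366). When chow replicate 3, the lowest chow library for 19 of these 20 genes, was left out, 10 rose and 1 fell. Of 48 genes of the respiratory chain and ATP synthase 1, the subunit Atp5e, fell by 0.52 (adjusted p = 0.0298; 3 and 7 without chow replicate 3), and the median of the 48 was 0.01. Of 21 genes of branched-chain amino acid oxidation 4 rose and none fell (6 and 1 without chow replicate 3), with the dehydrogenase subunit Bckdha at 0.85 (adjusted p = 0.00318). In the creatine system, the muscle kinase Ckm did not pass, at 2302, 2244 and 2267 CPM in ketogenic hearts and 2499, 2609.7 and 1738 CPM in chow hearts (log2 fold change -0.01, SE 0.18, adjusted p = 0.983). The brain-type kinase Ckb, which the fetal heart makes, had 34.4, 33.9 and 33.4 CPM in ketogenic hearts, against 77.3, 78.1 and 77.5 CPM in chow hearts. The libraries of each diet were close to each other and far from those of the other diet, and Ckb fell by 1.20 (SE 0.08, adjusted p = 0.00139). Gatm, which starts creatine synthesis, fell by 1.06 (adjusted p = 0.0186). Of these 7 changed genes Ckb passed whichever library was left out. The other 6 lost the call without ketogenic replicate 3 (adjusted p up to 0.262), 4 of them without chow replicate 1 (up to 0.0885) and 5 without chow replicate 2 (up to 0.097).

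Few ketone body genes passed the test. Acat1, the thiolase that works in both synthesis and use, had 730.0, 738 and 765 CPM in ketogenic hearts, against 459, 429.7 and 391 CPM in chow hearts, and rose by 0.81 (adjusted p = 0.00643). Oxct1, the transferase that lets peripheral tissue oxidise ketone bodies, had 833, 866 and 1002 CPM in ketogenic hearts and 1486, 1314 and 969.6 CPM in chow hearts. The groups overlapped in chow replicate 3, and the log2 fold change was -0.44, SE 0.19, adjusted p = 0.174. Bdh1, the dehydrogenase of beta-hydroxybutyrate, had 20.5, 18.8 and 15.2 CPM in ketogenic hearts and 24.1, 31.9 and 12.3 CPM in chow hearts (log2 fold change -0.37, SE 0.43, adjusted p = 0.614), and again chow replicate 3 was the lowest chow library. Leaving out chow replicate 3 turned both into calls, Oxct1 at -0.60 (adjusted p = 0.000269) and Bdh1 at -0.65 (adjusted p = 0.01). Bdh2 and the monocarboxylate exporter Slc16a3 fell, at -3.36 and -1.46 (adjusted p = 0.0303 and 0.0373), at low levels: Bdh2 had 6 counts over the ketogenic hearts and 81 over the chow hearts, 52 of them in chow replicate 3. Of the 11 genes 1 rose (9.09%, against 6.25% of all genes) and 2 fell (18.2%, against 5.81%), with a median of -0.37 (2 and 4 without chow replicate 3). The hormone Fgf21, which the fasted liver makes, had 3 counts over the ketogenic hearts and 3 over the chow hearts and was not tested. Without ketogenic replicate 3 the calls of Acat1, Bdh2 and Slc16a3 were lost (adjusted p up to 0.227), without chow replicate 1 that of Slc16a3 (0.0752) and without chow replicate 2 those of Slc16a3 and Bdh2 (up to 0.103).

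Lipid synthesis and antioxidant genes gave smaller counts. Of 18 tested genes of fatty acid synthesis, desaturation and elongation 1 rose, the malic enzyme Me1, which supplies reducing power, and 3 fell, the desaturases Scd2 and Fads2 and the elongase Elovl5. Me1 had 235, 236 and 246 CPM in ketogenic hearts, against 128, 121 and 124 CPM in chow hearts (log2 fold change 0.95, SE 0.08, adjusted p = 0.00166). Scd2 had 28.8, 26.5 and 30.3 CPM in ketogenic hearts, against 84.7, 73.9 and 102 CPM in chow hearts, and fell by 1.59, with Fads2 at -0.94 and Elovl5 at -0.39 (adjusted p = 0.00236, 0.0322 and 0.0335). The median of this list was -0.67, and -0.12 without chow replicate 3. Of 31 antioxidant genes 4 rose (12.9%) and 2 fell (6.45%, against 5.81% of all genes). Without chow replicate 3, 9 rose and 3 fell. The superoxide dismutase Sod1 and the glutathione transferase Gstm1 rose by 0.56 and 0.59 (adjusted p = 0.0108 and 0.00952). The metallothionein Mt2 had 6.92, 5.84 and 4.73 CPM in ketogenic hearts, against 14.046, 13.967 and 19.9 CPM in chow hearts, and fell by 1.51. The glutathione peroxidase Gpx1 fell by 1.20 (adjusted p = 0.00999 and 0.0175). Me1 kept its call whichever library was left out. The other 7 lost it without ketogenic replicate 3 (adjusted p up to 0.232), Fads2 and Elovl5 without chow replicate 1 (up to 0.0987), and these with Sod1 without chow replicate 2 (up to 0.106).

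A minority of the regulators of fat oxidation and insulin signalling changed, by small steps. Of 22 PPAR, ERR and PGC-1 genes 8 rose (36.4%) and none fell. The corepressor Ncor1 rose by 0.55, the orphan receptors Esrrb and Esrrg by 0.59 and 0.54, and Rxra, the partner of PPAR-alpha on DNA, by 0.39 (adjusted p = 0.0103, 0.0159, 0.0167 and 0.0214). Ncor1 had 281, 282 and 295 CPM in ketogenic hearts, against 198, 203 and 192 CPM in chow hearts, with no overlap. Of 24 genes of the insulin receptor, IRS and FOXO list 8 rose (33.3%), 2 fell (8.33%) and 14 did not pass. The forkhead factors Foxo4 and Foxo3, which insulin keeps out of the nucleus, rose by 0.63 and 0.61, the PI3-kinase subunit Pik3r1 by 0.58 and the muscle ubiquitin ligase Fbxo32 by 0.57 (adjusted p = 0.0108, 0.0166, 0.0108 and 0.0158). The kinase Akt1 had 213, 208 and 201 CPM in ketogenic hearts, against 272, 282 and 269 CPM in chow hearts, and fell by 0.42. Ddit4, an inhibitor of mTOR, fell by 0.73 (adjusted p = 0.0248 and 0.0138). None of these 10 calls held whichever library was left out: 9 were lost without ketogenic replicate 3 (adjusted p up to 0.245), 3 without chow replicate 1 (up to 0.0772) and 7 without chow replicate 2 (up to 0.0912).

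Among the genes of electrical function a few changed by much and most did not pass. Of 44 tested ion channel genes 8 rose (18.2%) and 1 fell (2.27%), with a median of -0.03. Without chow replicate 3, 13 rose and 7 fell. Scn4b, an auxiliary beta subunit of the sodium channel (chromosome 9, 44947125 to 44962144, plus strand, mm9), had 173, 172 and 146 CPM in ketogenic hearts, against 12.1, 7.92 and 5.14 CPM in chow hearts, a rise of 19.1-fold (log2 fold change 4.26, SE 0.37, adjusted p = 0.00733). Scn4a, the pore subunit known from skeletal muscle, had 118, 114 and 130.5 CPM in ketogenic hearts, against 47.9, 43.9 and 33.8 CPM in chow hearts (log2 fold change 1.56, SE 0.15, adjusted p = 0.00283). Kcnv2, a silent potassium channel subunit that modifies others, had 21.9, 25.4 and 20.6 CPM in ketogenic hearts, against 6.17, 6.16 and 5.64 CPM in chow hearts (log2 fold change 1.89, SE 0.13, adjusted p = 0.00139). For these 3 genes the lowest ketogenic library was above the highest chow library. Kcnd3, a pore subunit of the transient outward current, rose by 0.68 (adjusted p = 0.00743), while its partner Kcnip2 did not pass, at 66.6, 67.4 and 69.0 CPM in ketogenic hearts and 82.2, 77.7 and 50.9 CPM in chow hearts (log2 fold change -0.05, SE 0.21, adjusted p = 0.906). Kcne1, the beta subunit of the slow delayed rectifier, fell by 1.31 (adjusted p = 0.0367). Of 28 tested calcium handling genes 2 rose and 2 fell, 7.14% each, against 6.25% and 5.81% of all genes (7 and 6 without chow replicate 3). The L-type channel pore Cacna1c rose by 0.56 and the kinase Camk2a by 0.53 (adjusted p = 0.0246 and 0.00807). Casq1, the calcium store protein of fast skeletal muscle, had 6.49, 8.05 and 11.2 CPM in ketogenic hearts, against 29.0, 36.1 and 45.9 CPM in chow hearts, and fell by 2.04, and the pump Atp2b4 fell by 0.51 (adjusted p = 0.0138 and 0.0401).

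Receptor genes showed the same picture, with 7 of 30 tested genes higher, 1 lower (7 and 3 without chow replicate 3) and a median of 0.01. Chrna2, a nicotinic acetylcholine receptor subunit (chromosome 14, 66759797 to 66771785, plus strand, mm9), had 30.0, 27.3 and 21.3 CPM in ketogenic hearts, against 1.38, 2.04 and 0.987 CPM in chow hearts, a rise of 17.3-fold (log2 fold change 4.11, SE 0.29, adjusted p = 0.00158). Adra1a, an alpha-adrenergic receptor (chromosome 14, 67254095 to 67352166, plus strand, mm9), had 69.2, 74.0 and 72.2 CPM in ketogenic hearts, against 19.1, 21.9 and 24.0 CPM in chow hearts, a rise of 3.31-fold (log2 fold change 1.73, SE 0.11, adjusted p = 0.00139). Adrb1, the main beta-adrenergic receptor of heart muscle, did not pass, with 37.5, 38.3 and 33.0 CPM in ketogenic hearts and 29.5, 36.5 and 35.0 CPM in chow hearts (log2 fold change 0.08, SE 0.12, adjusted p = 0.702). The angiotensin receptor Agtr1a and the thyroid hormone receptor Thrb rose by 0.71 and 0.61, and the leptin receptor Lepr fell by 0.69 (adjusted p = 0.0143, 0.00553 and 0.0256). Among the 14 changed channel, calcium and receptor genes, Kcnv2, Adra1a and Chrna2 passed whichever library was left out. Without ketogenic replicate 3 the call of 10 was lost (adjusted p up to 0.276), without chow replicate 1 that of 4 (up to 0.0916) and without chow replicate 2 that of 6 (up to 0.0896). The call of Kcne1 was among those lost without chow replicate 1 or 2.

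Contractile genes that passed the test with all libraries rose. Of 30 tested sarcomere genes 7 rose (23.3%) and none fell (14 and 4 without chow replicate 3), with a median of 0.28. Tcap, which anchors titin at the Z disc, had 1312, 1283 and 1128 CPM in ketogenic hearts, against 424, 582 and 684 CPM in chow hearts (log2 fold change 1.11, SE 0.20, adjusted p = 0.0199). Myh7b, a slow-type myosin, rose by 0.92, the M-band protein Myom2 by 0.79 and the thin-filament length regulator Lmod2 by 0.76 (adjusted p = 0.00994, 0.00895 and 0.0111). The adult myosin Myh6 and the fetal myosin Myh7 did not pass, at 0.28 (adjusted p = 0.163) and 0.36 (adjusted p = 0.19). In both, each ketogenic library was above each chow library. The skeletal actin Acta1, a marker of load, had 432, 411 and 266 CPM in ketogenic hearts and 289, 404 and 200.4 CPM in chow hearts, with overlap (log2 fold change 0.21, SE 0.36, adjusted p = 0.736).

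Of 20 tested cardiac stress and fetal genes 1 rose (5%, against 6.25% of all genes) and 4 fell (20%, against 5.81%). Without chow replicate 3, 3 rose and 6 fell. Nppb, the B-type natriuretic peptide that rises with wall stress, had 62.2, 63.9 and 83.7 CPM in ketogenic hearts, against 132, 171 and 145 CPM in chow hearts, and fell by 1.03 (SE 0.16, adjusted p = 0.014). Nppa, the atrial peptide, had 38.3, 42.9 and 54.5 CPM in ketogenic hearts and 64.1, 131 and 7594 CPM in chow hearts, where the last value is the library that held atrial tissue (log2 fold change -5.77, SE 3.26, adjusted p = 0.344, and -1.05 with an adjusted p of 0.313 without that library). The immediate early gene Egr1 fell by 0.59 and Postn, made by activated fibroblasts, fell by 1.60, while the actin-binding Xirp2 rose by 0.73 (adjusted p = 0.0109, 0.00252 and 0.0346). All 8 changed genes of this and the sarcomere list named here lost the call without ketogenic replicate 3 (adjusted p up to 0.241), 1, Xirp2, also without chow replicate 1 (0.0658) and 3 without chow replicate 2 (up to 0.0788).

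The clock differed between the diets in both of its arms. The labels do not give the hour of collection or the feeding state, so a difference between the groups in either cannot be told apart from diet. In the circadian clock, Arntl and its partners Clock and Npas2 switch on genes with an E-box, CACGTG, near their start, among them Per and Cry genes whose proteins shut the activators off, and Dbp and Tef, which carry the rhythm to outputs. The activators Arntl and Npas2 fell. Arntl had 5.91, 5.18 and 4.92 CPM in ketogenic hearts, against 29.9, 23.2 and 21.7 CPM in chow hearts (log2 fold change -2.24, SE 0.18, adjusted p = 0.00158), and Npas2 had 5.21, 5.36 and 4.01 CPM, against 11.6, 12.9 and 13.2 CPM in chow hearts (log2 fold change -1.42, SE 0.17, adjusted p = 0.00511). Some of the repressors rose. Per2 had 21.5, 19.4 and 17.9 CPM in ketogenic hearts, against 2.15, 2.54 and 6.29 CPM in chow hearts (log2 fold change 2.37, SE 0.47, adjusted p = 0.0393), and chow replicate 3 was the highest of the chow hearts. Gm129, the repressor that RefSeq names Ciart, had 8.41, 7.09 and 6.83 CPM in ketogenic hearts, against 0.386, 0.905 and 0.494 CPM in chow hearts (log2 fold change 3.63, SE 0.34, adjusted p = 0.0023). Cry2 rose by 0.79 and Nr1d2 by 0.82 (adjusted p = 0.0226 and 0.0042). Per1, Per3 and Cry1 did not pass, at 1.20, 1.30 and -0.52 (adjusted p = 0.0793, 0.0604 and 0.127), and without chow replicate 3 Per3 was a rise, at 1.69 (adjusted p = 7.82e-08), and Cry1 a fall, at -0.61 (adjusted p = 0.0122). Of 17 tested core genes 5 rose (29.4%) and 2 fell (7 and 3 without chow replicate 3), and of 16 output genes 9 rose (56.2%) and 3 fell.

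Of the outputs, Dbp had 164, 159.7 and 148 CPM in ketogenic hearts, against 23.2, 36.5 and 55.3 CPM in chow hearts (log2 fold change 2.01, SE 0.38, adjusted p = 0.042), and the chow libraries were spread over a wider range than the ketogenic ones. Bhlhe41, a repressor of the same E-boxes, had 43.5, 41.3 and 40.8 CPM in ketogenic hearts, against 15.2, 16.7 and 14.2 CPM in chow hearts (log2 fold change 1.44, SE 0.10, adjusted p = 0.00139). Tef rose by 1.09, the ubiquitin protease Usp2 by 1.11 and the mitotic inhibitor kinase Wee1 by 0.99 (adjusted p = 0.00365, 0.00236 and 0.0042). Nfil3, which competes with Dbp for its sites, fell by 1.16 (adjusted p = 0.0375). Gm129, Arntl, Bhlhe41 and Usp2 passed whichever library was left out. Of the other 8 clock genes named as changed, all lost the call without ketogenic replicate 3 (adjusted p up to 0.219), 3 without chow replicate 1 (up to 0.0872) and 4 without chow replicate 2 (up to 0.115).

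The promoters of 3 of the risers are shown because each holds the E-box. They are the 250 bases before the RefSeq start of the gene on build GRCm38.p6, read 5′ to 3′ on the strand of the gene, with the E-box, CACGTG, in capitals. It lies 116, 58 and 44 bases before the start of Gm129 (chr3:95882229-95882478, minus strand), 153 before that of Bhlhe41 (chr6:145865421-145865670, minus strand) and 127 before that of Tef (chr15:81802423-81802672, plus strand).
Gm129: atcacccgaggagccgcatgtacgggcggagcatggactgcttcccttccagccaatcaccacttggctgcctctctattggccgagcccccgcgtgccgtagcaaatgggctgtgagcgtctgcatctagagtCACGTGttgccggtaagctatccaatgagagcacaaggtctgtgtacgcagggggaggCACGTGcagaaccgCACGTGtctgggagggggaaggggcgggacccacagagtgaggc
Bhlhe41: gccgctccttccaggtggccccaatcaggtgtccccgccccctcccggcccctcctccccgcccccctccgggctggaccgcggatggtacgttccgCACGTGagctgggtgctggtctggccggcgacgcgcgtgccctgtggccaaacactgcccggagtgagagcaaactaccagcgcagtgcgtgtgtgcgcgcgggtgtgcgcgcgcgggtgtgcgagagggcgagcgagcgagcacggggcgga
Tef: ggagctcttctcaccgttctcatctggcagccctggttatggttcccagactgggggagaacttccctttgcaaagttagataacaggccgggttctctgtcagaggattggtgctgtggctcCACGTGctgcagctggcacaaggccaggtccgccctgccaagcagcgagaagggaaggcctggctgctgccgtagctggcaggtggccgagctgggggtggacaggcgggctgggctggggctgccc
From 250 bases before to 50 after the start, the E-box, which reads the same on both strands, was in 3 of 15 core clock genes with a promoter in the RefSeq table (20%) and in 3 of 12 output genes (25%), against 8.09% of all 27025 genes. The D-box, TTATGTAA or TTACGTAA on either strand, which Dbp and Tef bind, was in 1 of the 15 core genes and 0 of the 12 output genes, against 1.23% of all. A match shows that the letters are there, not that a factor binds them.

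Genes of dividing cells fell together. Of 41 genes of mitosis and cytokinesis 33 fell (80.5%) and none rose, with a median of -2.52. Top2a, the topoisomerase that untangles chromosomes (chromosome 11, 98854261 to 98885503, minus strand, mm9), had 4.15, 5.06 and 2.95 CPM in ketogenic hearts, against 35.4, 34.8 and 14.029 CPM in chow hearts (log2 fold change -2.85, SE 0.55, adjusted p = 0.0433). Chow replicate 3 was the lowest of the chow hearts, as it was for 40 of the 41 genes. The motor gene Kif23 had 1.60, 1.79 and 0.985 CPM in ketogenic hearts, against 8.04, 8.71 and 5.10 CPM in chow hearts (log2 fold change -2.39, SE 0.34, adjusted p = 0.00915). Hmmr, Nusap1 and Anln, of the spindle and the cleavage furrow, fell, at -2.54, -2.49 and -2.52 (adjusted p = 0.0108, 0.0109 and 0.0113). These genes were low, and for 18 of the 41 every ketogenic heart was under 1 CPM. Of 40 tested DNA replication genes 10 fell (25%) and 1 rose, with a median of -0.67. The thymidine-making enzymes Tk1 and Tyms fell, at -2.58 and -1.79, the E2F factor E2f2 fell by 1.83 and the helicase subunit Mcm6 fell by 1.02 (adjusted p = 0.00939, 0.00654, 0.0101 and 0.0191). Rfc1, the large subunit of the clamp loader, rose by 0.40 (adjusted p = 0.018). Without chow replicate 3, 39 of the mitosis genes and 27 of the replication genes fell. In bulk tissue, fewer cells of a type and less RNA per cell cannot be told apart, which touches this and every cell type result below.

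Among genes that passed with and without chow replicate 3, that averaged at least 2 in log2 CPM and did not overlap between the diets, histone genes of the replication-dependent clusters gave 11 of the 12 largest falls. This group was chosen after its values were seen. Of 68 listed genes 64 were tested, 46 fell and none rose, with a median of -2.40. Their levels summed to 553, 539 and 449.9 CPM in ketogenic hearts, against 1274, 1444 and 898 CPM in chow hearts. By class, 5 of 5 tested linker H1 genes fell, with 10 of 17 H2A, 13 of 17 H2B, 7 of 12 H3 and 11 of 13 H4 genes. The linker gene Hist1h1b had 2.61, 1.97 and 1.51 CPM in ketogenic hearts, against 31.8, 31.3 and 11.2 CPM in chow hearts (log2 fold change -3.64, SE 0.64, adjusted p = 0.0363). Hist1h2ah, Hist1h2bn, Hist1h4a and Hist1h3c fell, at -3.83, -3.17, -3.12 and -3.05 (adjusted p = 0.0367, 0.0102, 0.0146 and 0.038). Copies of 1 histone are near-identical and share reads, so the split between them is uncertain, and these messages end without a poly(A) tail, while the libraries were made from messenger RNA. All 17 cell cycle and histone genes named as changed, Kif22 and Cdk1 included, lost the call without ketogenic replicate 3 (adjusted p up to 0.264), 6 without chow replicate 1 (up to 0.105), 7 without chow replicate 2 (up to 0.0921) and 3, Top2a, Hist1h2ah and Hist1h3c, without ketogenic replicate 1 (up to 0.0531). None lost it without chow replicate 3.

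The promoters of mitotic genes share short motifs: the cell cycle homology region, TTTGAA, where a repressor complex sits in resting cells, and CCAAT, bound by NF-Y. Those of Kif22, a spindle motor, and Cdk1, the mitotic kinase, are shown as the members with the smallest adjusted p whose 250 bases before the start hold TTTGAA. They were chosen after their values were seen. Kif22 and Cdk1 fell, at -2.67 and -2.81 on a log2 scale (adjusted p = 0.0143 and 0.0177). Cdk1 had 0.798, 1.07 and 0.854 CPM in ketogenic hearts, against 9.03, 6.73 and 3.29 CPM in chow hearts. The 250 bases before each start are given as above (Kif22, chr7:127042421-127042670, minus strand; Cdk1, chr10:69352913-69353162, minus strand), with both motifs in capitals, also where they lie on the other strand as TTCAAA or ATTGG.
Kif22: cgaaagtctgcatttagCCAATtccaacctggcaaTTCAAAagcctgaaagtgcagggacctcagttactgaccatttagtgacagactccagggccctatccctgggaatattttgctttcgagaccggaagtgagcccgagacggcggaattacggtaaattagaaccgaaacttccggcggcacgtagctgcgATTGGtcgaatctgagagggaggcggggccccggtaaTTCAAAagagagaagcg
Cdk1: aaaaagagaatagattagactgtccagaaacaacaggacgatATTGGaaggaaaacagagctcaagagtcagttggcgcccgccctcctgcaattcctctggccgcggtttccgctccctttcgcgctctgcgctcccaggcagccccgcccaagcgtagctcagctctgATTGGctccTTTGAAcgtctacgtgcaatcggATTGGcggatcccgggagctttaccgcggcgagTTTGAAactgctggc
TTTGAA begins 215 and 17 bases before the start of Kif22 and 71 and 15 before that of Cdk1, and CCAAT 233 and 54 before that of Kif22 and 208, 80 and 48 before that of Cdk1. Searched on both strands from 250 bases before to 50 after the start, TTTGAA was in 28 of 37 mitosis genes (75.7%), against 20.2% of all 27025 genes, and in 6 of 34 replication genes (17.6%). CCAAT was in 29 of the 37 (78.4%) and 22 of the 34 (64.7%), against 41.1% of all. The direct repeat that PPAR and RXR bind, AGGTCANAGGTCA, was in none of 19 beta-oxidation genes and none of 9 carnitine shuttle genes in this window, and in 0.0481% of all genes.

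The p53 genes did not rise as a group. p53 is a transcription factor that stops the cell cycle after damage, chiefly through the inhibitor Cdkn1a, and senescent cells are known for high Cdkn1a or Cdkn2a, loss of lamin B1 and secretion of cytokines and proteases. Cdkn1a (chromosome 17, 29227931 to 29237667, plus strand, mm9) had 9.68, 10.7 and 16.8 CPM in ketogenic hearts, against 32.2, 36.6 and 26.2 CPM in chow hearts. The highest ketogenic library was below the lowest chow library, and Cdkn1a fell by 1.25 (SE 0.26, adjusted p = 0.0354). Trp53, the gene of p53, had 13.6, 11.4 and 19.5 CPM in ketogenic hearts and 26.4, 27.6 and 22.3 CPM in chow hearts, again with no overlap, but did not pass (log2 fold change -0.68, SE 0.20, adjusted p = 0.077). It passed as a fall without chow replicate 3, at -0.80 (adjusted p = 0.0132). Mdm2, the ligase that degrades p53 and is its target, had 61.0, 67.2 and 64.9 CPM in ketogenic hearts and 60.3, 63.8 and 61.1 CPM in chow hearts (log2 fold change 0.06, SE 0.08, adjusted p = 0.632). Cdkn2a was too low to test, with 1, 2 and 1 counts in ketogenic hearts and 8, 8 and 5 in chow hearts. Of 39 tested p53 targets 2 rose (5.13%, against 6.25% of all genes) and 6 fell (15.4%, against 5.81%), with a median of -0.09. Without chow replicate 3, 4 rose and 10 fell. Rrm2b, which supplies nucleotides for repair, and Gadd45a rose by 0.51 and 0.60 (adjusted p = 0.0135 and 0.0211). Phlda3, an inhibitor of Akt, had 8.30, 7.62 and 9.39 CPM in ketogenic hearts, against 15.1, 19.1 and 24.8 CPM in chow hearts, and fell by 1.19. Apaf1, of the apoptosome, and Psrc1, which also works on the spindle, fell, at -0.52 and -2.77 (adjusted p = 0.0211, 0.0268 and 0.0229). Of 23 tested regulators and cell cycle inhibitors 5 rose (21.7%) and 1, Cdkn1a, fell (4.35%). The risers included the damage kinase Atm at 0.36, the p53 kinase Hipk2 at 0.49, the cyclin-dependent kinase Cdk6 at 0.56 and the pocket protein Rbl2 at 0.47 (adjusted p = 0.0299, 0.0247, 0.0202 and 0.0162). Without chow replicate 3 this list had 6 rises and 7 falls among 22 genes.

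Genes linked to the senescent nucleus and secretome did not all move as in senescent cells. Loss of lamin B1 and secretion of such factors are known of these cells, and 34 of the 37 tested genes of secreted factors did not pass. Of 21 tested genes of the lamina and linked chromatin 6 fell and 1, Hmga1, rose, by 0.56 (adjusted p = 0.00994; 1 and 8 without chow replicate 3). Lmnb1, the gene of lamin B1, had 6.70, 8.22 and 5.58 CPM in ketogenic hearts, against 22.3, 23.2 and 13.4 CPM in chow hearts, and fell by 1.58 (SE 0.28, adjusted p = 0.0229). It is also made by dividing cells, as are Hmgb2, the methyltransferase Ezh2 and the histone H2afz, which fell, at -1.30, -0.77 and -0.62 (adjusted p = 0.0186, 0.0162 and 0.0118). Tmpo, a lamina-associated protein, fell by 0.44 (adjusted p = 0.0175). Of 37 tested genes of secreted factors 3 fell (8.11%, against 5.81% of all genes) and none rose (2 and 9 without chow replicate 3). The binding protein Igfbp7 had 129, 124 and 119 CPM in ketogenic hearts, against 279, 270.5 and 283 CPM in chow hearts, and fell by 1.17 (adjusted p = 0.0015). The matrix proteases Mmp14 and Mmp2 fell, at -1.08 and -0.78 (adjusted p = 0.00442 and 0.0104). The stress hormone Gdf15 did not pass, at 1.44, 1.13 and 1.31 CPM in ketogenic hearts and 0.936, 0.792 and 0.823 CPM in chow hearts (log2 fold change 0.61, SE 0.34, adjusted p = 0.267). The cytokines Il6 and Il1b were at 0 and 22 counts over the ketogenic hearts and at 8 and 21 over the chow hearts, too low for a comparison at this depth. Of the 18 changed p53 and senescence genes, Hmga1 not counted, Igfbp7 kept its call whichever library was left out. The calls of 17 were lost without ketogenic replicate 3 (adjusted p up to 0.216), of 9 without chow replicate 1 (up to 0.0996) and of 15, Cdkn1a among them, without chow replicate 2 (up to 0.0947).

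**Figure D4:**
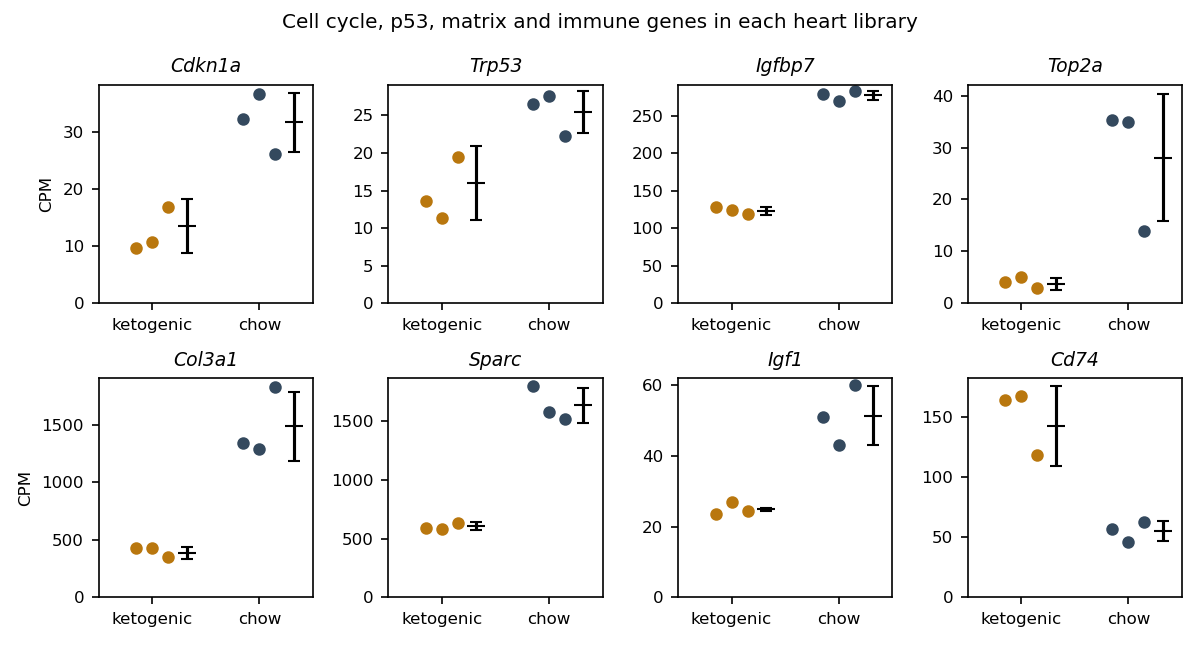
CPM of 8 genes of p53, senescence, the cell cycle, the matrix, growth and antigen presentation in each of the 3 ketogenic hearts (left) and 3 chow hearts (right), 1 point per library, with mean and SD (n = 2 for ketogenic, with replicates 1 and 2 as 1 sample, and n = 3 for chow). Cd74 is higher in every ketogenic heart, and the other 7 genes are lower in every ketogenic heart, Trp53 without passing the test.

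Genes of the extracellular matrix fell. Of 28 tested collagen genes 18 fell (64.3%) and none rose, with a median of -1.27. Col3a1, a fibrillar collagen (chromosome 1, 45368383 to 45406551, plus strand, mm9), had 425, 425 and 349.6 CPM in ketogenic hearts, against 1342, 1286 and 1826 CPM in chow hearts (log2 fold change -1.94, SE 0.19, adjusted p = 0.00283). Col1a1, the main fibrillar collagen, had 288, 269 and 196 CPM in ketogenic hearts, against 574, 671 and 1066 CPM in chow hearts (log2 fold change -1.70, SE 0.33, adjusted p = 0.0359). In both, chow replicate 3 was the highest library, and without it the log2 fold changes were -1.76 and -1.38 (adjusted p = 3.01e-08 and 0.017). Col5a1 and Col5a2, which set fibril width, fell, at -1.29 and -1.43, and Col6a3, of the network around cells, fell by 1.25 (adjusted p = 0.00173, 0.00175 and 0.00181). Of 26 tested genes that modify or crosslink collagen 7 fell and 1 rose (1 and 14 without chow replicate 3). The collagen chaperone Serpinh1 fell by 0.81, the procollagen protease Bmp1 fell by 0.81 and the proline isomerase Ppib fell by 0.71, while the isomerase Fkbp10 rose by 0.67 (adjusted p = 0.007, 0.00501, 0.00661 and 0.0113).

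Of 44 tested matricellular, proteoglycan and basement membrane genes 11 fell (25%) and 2 rose (4 and 24 without chow replicate 3). Sparc, which helps collagen assemble, had 591, 583 and 633 CPM in ketogenic hearts, against 1801, 1579 and 1520.1 CPM in chow hearts (log2 fold change -1.42, SE 0.12, adjusted p = 0.00179). The microfibril genes Fbn1 and Mfap5 fell, at -1.31 and -1.61 and the proteoglycan Vcan fell by 1.09 (adjusted p = 0.00236, 0.00236 and 0.00159). Lama5, of the basement membrane, and Thbs2 rose by 0.71 and 0.44 (adjusted p = 0.0123 and 0.0472). Of 12 fibroblast markers 5 fell and 7 did not pass. The list summed to 3274, 3291 and 2871 CPM in ketogenic hearts, against 3602, 3869.9 and 6222 CPM in chow hearts. Its collagen members Col1a1 and Col1a2 are part of that sum, and the part of fibroblast number in the falls of the matrix was not tested. Col5a1, Col5a2, Col6a3, Vcan and Mfap5 passed whichever library was left out. The other 10 matrix genes named as changed lost the call without ketogenic replicate 3 (adjusted p up to 0.218), Thbs2 without chow replicate 1 (0.118) and 3 without chow replicate 2 (up to 0.124).

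**Figure D5:**
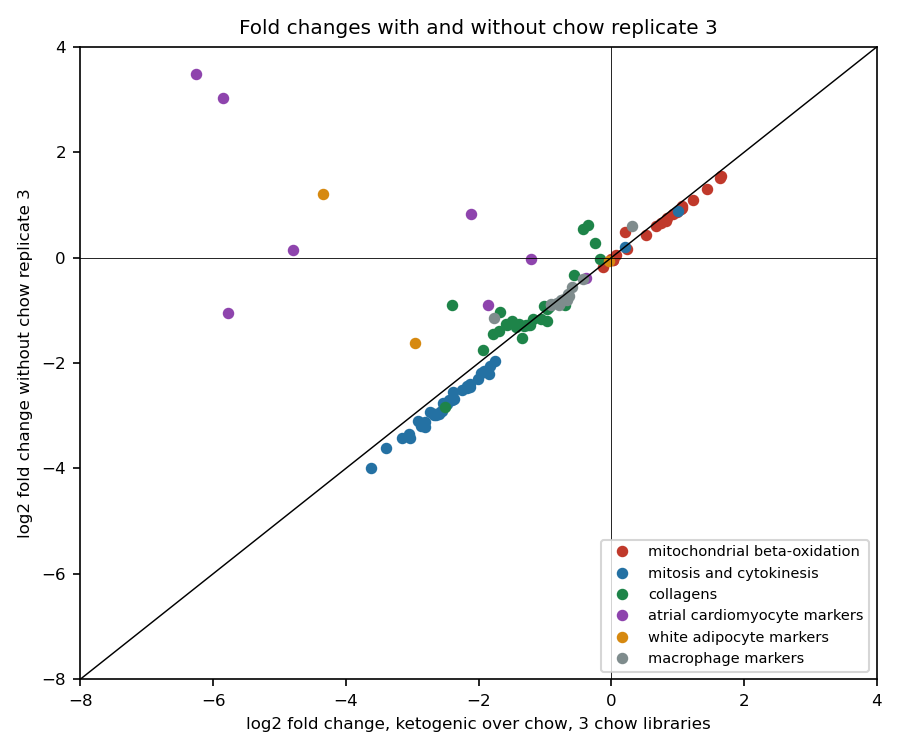
Log2 fold change, ketogenic over chow, with all 3 chow libraries (x axis) and without chow replicate 3 (y axis) for tested members of 6 lists, 1 point per gene, with the line of equality. Beta-oxidation, mitosis, macrophage and most collagen genes lie near the line, and atrial markers such as Myl7, at -6.27 with and 3.48 without that library, do not.

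Growth genes of early life fell or did not pass. Igf1, the growth factor that growth hormone drives (chromosome 10, 87321801 to 87399792, plus strand, mm9), had 23.5, 26.9 and 24.5 CPM in ketogenic hearts, against 50.8, 43.1 and 60.0 CPM in chow hearts, and fell by 1.05 (SE 0.14, adjusted p = 0.00755). Mest, an imprinted gene that is silenced as the body matures, had 9.20, 8.34 and 7.49 CPM in ketogenic hearts, against 42.7, 43.7 and 29.4 CPM in chow hearts, and fell by 2.23 (SE 0.21, adjusted p = 0.00331). The growth factor Ptn fell by 1.36 (adjusted p = 0.0311). Igf2 did not pass, with 135, 129 and 90.3 CPM in ketogenic hearts and 145, 135 and 375 CPM in chow hearts, the last of which is the library with atrial tissue (log2 fold change -0.97, SE 0.61, adjusted p = 0.371). Of 25 tested genes of growth hormone, IGF and imprinted growth, 4 fell, Igfbp7 being the fourth, and none rose. Their median was -0.82. Without chow replicate 3, 13 fell and 1 rose, with a median of -0.32. The calls of Igf1, Mest and Ptn were lost without ketogenic replicate 3 (adjusted p up to 0.194) and that of Ptn without chow replicate 1 (0.081).

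Genes of protein synthesis and quality control moved by less. Of 44 cytosolic ribosomal protein genes 7 fell (15.9%) and none rose (0 and 14 without chow replicate 3), with a median of -0.18. The list summed to 8911, 8869 and 8894 CPM in ketogenic hearts, against 9990, 9708 and 10508.5 CPM in chow hearts. Rpl3 had 105, 105 and 103 CPM in ketogenic hearts, against 156, 161 and 207 CPM in chow hearts, and fell by 0.75. Rps14, Rps18 and Rpl32 fell, at -0.52, -0.49 and -0.41 (adjusted p = 0.0166, 0.0298, 0.0136 and 0.0298). Of 23 tested genes of the unfolded protein response, by which the endoplasmic reticulum adds chaperones, 8 fell (34.8%) and 1 rose (3 and 10 without chow replicate 3). Sdf2l1 had 3.09, 2.74 and 3.61 CPM in ketogenic hearts, against 6.44, 7.07 and 8.31 CPM in chow hearts, and fell by 1.17. Manf fell by 0.56, Edem1 fell by 0.49 and Pdia4 fell by 0.38, while Herpud1, of the degradation arm, rose by 0.68 (adjusted p = 0.016, 0.0146, 0.0281, 0.0238 and 0.0105). Of 30 autophagy genes 6 rose (20%) and none fell (12 and 2 without chow replicate 3). They included the cargo receptor Sqstm1 at 0.65, the initiating kinases Ulk2 and Ulk1 at 0.62 and 0.49 and the mitophagy kinase Pink1 at 0.57 (adjusted p = 0.00813, 0.0102, 0.0116 and 0.0158). Of 20 heat shock genes 2 rose (10%, against 6.25% of all genes) and none fell (10 and 0 without chow replicate 3). The mitochondrial chaperonin Hspd1 rose by 0.74 and Bag3 by 0.51 (adjusted p = 0.0259 and 0.0354). Of 36 genes of muscle ubiquitin ligases and the proteasome 2 rose (5.56%, against 6.25% of all genes) and 1 fell (2.78%). Trim54 rose by 0.92 beside Fbxo32, and the subunit Psmb5 fell by 0.40 (adjusted p = 0.00337 and 0.0418). Without chow replicate 3 the list had 3 rises and 5 falls. All 17 named here lost the call without ketogenic replicate 3 (adjusted p up to 0.302), 7 without chow replicate 1 (up to 0.107) and 13 without chow replicate 2 (up to 0.123).

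Immune genes moved in opposite directions. Of 14 markers of tissue macrophages 10 fell (71.4%) and none rose, and the list summed to 409, 412 and 398 CPM in ketogenic hearts, against 718, 669 and 646 CPM in chow hearts, with no overlap. The lysozyme Lyz2 had 88.1, 88.0 and 109.5 CPM in ketogenic hearts, against 195, 169 and 193 CPM in chow hearts (log2 fold change -0.91, SE 0.12, adjusted p = 0.007). The receptor Csf1r, on which macrophages depend, had 70.8, 69.0 and 61.8 CPM, against 109, 104 and 96.8 CPM in chow hearts (log2 fold change -0.65, SE 0.10, adjusted p = 0.00989). The complement gene C1qb, the mannose receptor Mrc1 and Folr2 fell, at -0.75, -0.71 and -0.82 (adjusted p = 0.00785, 0.0103 and 0.00939). Antigen presentation by class II of the major histocompatibility complex went the other way. Cd74, the invariant chain, had 164, 168 and 119 CPM in ketogenic hearts, against 57.2, 46.3 and 62.3 CPM in chow hearts (log2 fold change 1.36, SE 0.18, adjusted p = 0.0102). The class II chains H2-Aa, H2-Ab1 and H2-Eb1 rose by 1.34, 1.30 and 1.498 (adjusted p = 0.026, 0.0463 and 0.0252). H2-Aa had 58.9, 55.7 and 40.5 CPM in ketogenic hearts and 22.1, 14.3 and 21.8 CPM in chow hearts, and in all 4 genes ketogenic replicate 3 was the lowest of the ketogenic hearts but above every chow heart. The adjusted p of H2-Eb1 was 0.064 without chow replicate 3.

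Of 35 genes of the interferon response and antigen presentation, 5 rose (14.3%) and 2 fell (5.71%, against 5.81% of all genes). Without chow replicate 3, 6 rose and 7 fell. The falls with all libraries were Oasl2 at -0.54 and Ifitm3 at -0.43 (adjusted p = 0.0356 and 0.0497). Among the 12 largest rises outside the lists were Ifi205, an interferon-inducible gene, at 1.97 and the class I gene H2-Q6 at 2.19 (adjusted p = 0.0101 and 0.0363). Both belong to families of similar genes that share reads and are uncertain. The platelet chemokine Pf4, which macrophages also make, had 9.74, 7.68 and 9.52 CPM in ketogenic hearts, against 19.6, 19.9 and 18.8 CPM in chow hearts, and fell by 1.09 (adjusted p = 0.00318). The globins did not pass. Hbb-b1 had a log2 fold change of -1.79, SE 0.72, adjusted p = 0.202, and Hba-a1 was at 498, 454 and 1040.4 CPM in ketogenic hearts and 1665, 2358 and 2613 CPM in chow hearts (log2 fold change -1.54, SE 0.40, adjusted p = 0.0739). The globin copies share reads and are uncertain. Of the 12 endothelial markers none passed (0 and 4 without chow replicate 3), and their median was -0.20. Cd74 passed whichever library was left out. Of the other 13 changed immune and platelet genes, 12 lost the call without ketogenic replicate 3 (adjusted p up to 0.34), 6 without chow replicate 1 (up to 0.14), 5 without chow replicate 2 (up to 0.128) and 1, Ifitm3, without ketogenic replicate 2 (0.0555).

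The diet effect in heart was set against that in kidney and liver in 1 model of all libraries, with the near-identical ketogenic pairs of heart and of liver each summed, for 9 genes chosen with earlier results known. Over all 15695 genes the effect differed between heart and kidney in 2.50% and between heart and liver in 23.5%. Scn4b had a log2 fold change of 4.29 in heart, against 0.05 in kidney and -1.30 in liver. The liver value of Scn4b rests on 1, 2 and 4 reads in the ketogenic livers and 3, 9 and 9 in the chow livers. Pdk4 had 2.96 in heart, against 0.24 in kidney and -1.19 in liver. Both differed from both organs (adjusted p = 2.15e-05 and 0.000608 for Scn4b, 0.000287 and 7.94e-06 for Pdk4). Arntl fell less in heart than in liver (-2.20 and -3.93, adjusted p of the difference = 0.00117), and Angptl4 rose more (1.56 and 0.47, adjusted p of the difference = 0.00714). For Cdkn1a the differences did not pass, with -1.22 in heart, -1.09 in kidney and -2.60 in liver (adjusted p = 0.949 and 0.0541). Cpt1a, Per2, Oxct1 and Bdh1 passed in neither comparison. Without chow replicate 3, Per2 differed from kidney by 1.46 (adjusted p = 0.0216), and Oxct1 and Bdh1 from liver by -0.69 and -0.94 (adjusted p = 0.0411 and 0.0036).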

How the data were processed

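RNA of 6 hearts, of 18 libraries in the series, was sequenced from stranded messenger RNA libraries made from RNA with an integrity number above 4, per the labels. Per the file headers, the authors counted read pairs on exons of the UCSC mm9 annotation with featureCounts 1.5.0 (minimum mapping quality 2, strand setting 2), with reads that map to several places or overlap several genes counted as fractions. The deposited values are thus estimated counts, not normalized. The submitters' processing notes also name bcl2fastq, HISAT2 2.1.0 and SAMtools.

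The deposited estimates were rounded to integers. Depth was 16135276 to 22767878 counts per heart. In each heart, 57.1% to 59.1% of the total lay in genes with fractional values, whose levels depend on how shared reads were split. Ketogenic heart libraries 1 and 2, nearly identical, were summed as 1 sample. Genes passing filterByExpr were tested with edgeR 4.0.16 (R 4.3.3; TMM scaling, robust quasi-likelihood fit, two-sided) with diet as the only term, and p-values were adjusted by Benjamini-Hochberg over all genes tested. The fit was tested on simulated data with known changes, where false calls were a larger share of the calls than the threshold of 0.05 allows and most of the smallest changes were missed, so calls near the threshold and genes that did not pass are to be read with that in view. The labels call the replicates biological but do not say that they came from separate animals. The p-values thus measure the spread between these samples, which may be in part technical. Summed levels and per-library values are TMM-scaled CPM, and means and SDs count the pair once. The replicate numbers were checked for pairing: same-numbered libraries of the diets correlated at 0.0322, 0.0758 and 0.124 in their deviations from the group means, and the labels give no shared litter or batch, so no pairing was assumed. The diet effects of heart, kidney and liver were compared in a model of all 18 libraries with interaction terms. Alternatives were limma-voom (limma 3.58.1), DESeq2 1.42.0, other scalings and filters, all libraries as separate samples, a replicate block, and leaving out each heart library.

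The gene lists, the genes of the organ comparison and the settings were chosen with earlier results of these data known. Some genes are not reported here; they stayed in the fits and were left out of the gene lists, whose counts cover the genes reported. Named genes are 32 fixed genes, the 12 largest rises and the 12 largest falls among genes that passed with and without chow replicate 3 (average log2 CPM of at least 2, no overlap between the diets), and up to 4 members per direction of each list, those with the smallest adjusted p. Outside that rule, Pdk3, Per1, Per3, Cry1 and some tissue markers are also named. Lmnb1, Kif22, Cdk1, Il6, Il1b and the histone group, outside it too, were chosen after their values were seen. Promoter sequences are RefSeq's on GRCm38.p6, not mm9. Genes of the erythroid, histone, thioesterase and other families share reads between near-identical copies. Gene coordinates were read from the deposited files (mm9).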

Additional observations from a re-analysis of the deposited data

Results flagged for a closer look

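The diet effect differed between organs, by the interaction term at an adjusted p under 0.05, for 4 of the 9 genes set side by side, which were chosen with earlier results known. Over all 15695 genes it differed in 2.50% between heart and kidney and in 23.5% between heart and liver. The difference in log2 fold change, heart minus kidney, was 2.72 for Pdk4 and 4.25 for Scn4b. Heart minus liver, it was 4.15 for Pdk4, 5.60 for Scn4b, 1.73 for Arntl and 1.10 for Angptl4. The Arntl value is positive because it fell further in liver, and the liver value of Scn4b rests on at most 9 reads in any liver. All 6 differences kept their sign and their call under each alternative run, including without each heart library in turn. The difference of Cdkn1a from liver, at 1.38, missed the threshold and passed with all libraries separate (1.20), with RLE scaling (1.42) and without ketogenic replicate 1 (1.43).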

How the results depend on the processing

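The count of called genes, 1642 (851 rises, 791 falls) in edgeR's test with adjusted p under 0.05, depended on the settings. With all 6 libraries separate it was 3317 (1676 and 1641), and with a replicate block on top 2732 (1300 and 1432). The block ended no call of a named gene, Hmga1 not counted. Hba-a1, Pdk3, Per1, Per3 and Trp53, not called with the pair summed, passed in both of these fits. The replicate numbers were not shown to pair the libraries. Leaving out 1 library gave 89 to 3742 genes (57 to 1853 rises, 32 to 1889 falls), lowest without ketogenic replicate 3, which leaves 1 ketogenic sample assumed to vary like the chow samples, and highest without chow replicate 3. Leaving out the atrial and adipocyte marker genes as well gave 3737 (1851 and 1886). Total-count scaling gave 464 rises and 1435 falls, and the model of all 18 libraries 1320 rises. DESeq2 gave 2331 genes, limma-voom 1439, RLE scaling 1637, no filter 1612 and a CPM of at least 1 in 3 samples 1657. Of 197 called genes named in the text, Hmga1 not counted, none turned round. Of these, 152 kept the call in every setting that left out no library, and 196 kept it without chow replicate 3. Only 31 kept it whichever library was left out.

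The results that changed sign had not passed the test. Ckm was at 0.013 with the replicate block, 0.0059 by DESeq2, 0.0079 by limma-voom, 0.0058 with RLE scaling, 0.025 with all 18 libraries, 0.00077 without ketogenic replicate 2, and 0.062 and 0.10 without chow replicates 1 and 2. Kcnip2 was at 0.082 and 0.035 without chow replicates 1 and 2, with a lowest value of -0.24 without chow replicate 3, and Adrb1 at -0.061 by total count and -0.013 without chow replicate 1, with a highest value of 0.17 without ketogenic replicate 3. Acta1 was at -0.0063 without chow replicate 3, marker genes left out or not, and at most 0.51 without ketogenic replicate 3, and Mdm2 at -0.075 by total count. Between organs, Oxct1 (heart minus kidney) was at 0.0032 without chow replicate 1 and -0.32 without chow replicate 3. Heart minus liver, Cpt1a was at -0.14 by total count and -0.042 to 0.15 with 1 library left out, and Per2 at -0.18 by total count and -0.025, -0.23 and -0.17 without ketogenic replicate 1 and chow replicates 1 and 2, with a highest value of 0.69 without chow replicate 3. The cause was not tested.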

Other observations

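Of 27 tested genes of cholesterol synthesis and sterol control 1 rose and 1 fell, 3.70% each, against 6.25% and 5.81% of all genes (4 and 5 without chow replicate 3, rises and then falls). Fdft1, the squalene synthase, had 56.2, 55.0 and 47.3 CPM in ketogenic hearts, against 30.1, 26.8 and 25.3 CPM in chow hearts (log2 fold change 0.91, SE 0.11, adjusted p = 0.00511), and the mevalonate kinase Mvk fell by 0.75 (adjusted p = 0.0256). Of 33 genes of vessel growth 2 rose (6.06%, against 6.25% of all genes) and none fell (3 and 8 without chow replicate 3). The risers were Flt1, a receptor of vascular endothelial growth factors, at 0.55 and its ligand Vegfb at 0.37 (adjusted p = 0.0354 and 0.044). Of 26 tested genes of the integrated stress response and serine synthesis 2 rose (7.69%, against 6.25% of all genes). They were Vldlr and Shmt1, which interconverts serine and glycine, at 1.09 (adjusted p = 0.0203). Of 23 immediate early genes, which handling of tissue can induce, 1 rose (4.35%) and 2 fell (8.70%), against 6.25% and 5.81% of all genes. Ier3 rose by 0.74, and Egr1 and the cytokine inhibitor Socs3 fell, Socs3 at -1.32 (adjusted p = 0.0102 and 0.0143). Fdft1 passed whichever heart library was left out. The other 6 lost the call without ketogenic replicate 3 (adjusted p up to 0.223), 4 without chow replicate 1 (up to 0.109) and 5 without chow replicate 2 (up to 0.108).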
